A study of Homo sapiens with 5 samples.

Results

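The mitochondrial ribosomal protein genes were taken as the genes whose symbol in the platform annotation starts with MRPL or MRPS followed by a digit, on probes with a detection p-value under 0.05 on at least 2 of the 5 arrays. Probe names rest on a match of the 5 signals between both deposited tables, because the probe IDs printed beside the labelled values differ from those of the larger table in nearly every row. The rule found 79 of the 11041 genes tested, on 106 of 19105 probes. Of the 79, 76 encode proteins (48 MRPL and 28 MRPS), 2 are the pseudogenes MRPL42P5 and MRPS31P5, and 1 is the antisense RNA MRPL20-AS1. No labelled probe of these genes was lost to the detection filter. RefSeq lists 77 human protein genes with such a symbol, and the remaining one, MRPL27, was not analysed here.

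Arrays were hybridised with RNA of K562, an established human leukaemia line with red cell traits. The 3 sh-JMJD1B arrays came from stable cells with a short hairpin RNA (shRNA) against JMJD1B, a histone H3 lysine demethylase now called KDM3B. The 2 sh-CTL arrays came from stable cells with a control shRNA. All cells carried a Tet-on (doxycycline-inducible) system, were grown in medium with 5% serum and received 1 µg/ml doxycycline for 48 h, controls included. The labels do not say how many clones or shRNAs stand behind a group, nor whether replicates were separate cultures, so p-values measure the spread between these samples, which may be technical. A difference between the stable lines and an effect of the hairpin cannot be told apart. The signal of JMJD1B itself was not analysed here.

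Mitochondria carry their own ribosome, which translates the few messages of mitochondrial DNA, nearly all of them for membrane subunits of the respiratory chain and ATP synthase. Its RNA comes from mitochondrial DNA, but all of its proteins are encoded in the nucleus, made in the cytosol and imported. The MRPL proteins build the large subunit, which joins amino acids, and the MRPS proteins the small subunit, which reads the message. Many descend from bacterial ribosomal proteins, while others are found in mitochondrial ribosomes only. MRPS30 and MRPS18A are named for the small subunit, although structures place their proteins in the large one. They are kept under their names below.

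Levels are log2(signal + 16) after quantile normalization, and a difference is sh-JMJD1B minus sh-CTL with its standard error, fitted with limma over all 19105 probes (n = 3 and 2). A gene was called at a Benjamini-Hochberg adjusted p under 0.05 over all probes. Over all genes tested, 6.27% were called, 2.56% higher and 3.7% lower. Of the probes, 5.07% were called, 449 of them higher (2.35% of probes) and 519 lower (2.72%). Higher probes thus made up 46.4% of those called, against 83.8% when the arrays were left without normalization. Detected probes of K562 markers were present for 8 of the 9 genes listed (GATA1, TAL1, KLF1, EPOR, HBE1, HBG1, HBG2 and HBZ), each on all 5 arrays. Of 4 markers listed for each other cell type, detected probes were present for 4 of epithelium, 2 of T cells, 2 of B cells and 1 of fibroblasts. Detection alone thus does not identify the line. HBZ, an embryonic globin, was lower (-0.56, adjusted p = 0.0015 in limma) and CD3D, a T cell marker, higher (0.38, adjusted p = 0.012), and they were the only marker genes called. The markers' part in the results below was not tested. In bulk RNA, fewer cells with a transcript and less transcript per cell cannot be told apart.

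Few of the mitochondrial ribosomal protein genes passed the test. Of the 76, 1 was called higher (MRPL41) and 0 lower in limma, or 1.32% against 6.27% of all genes. At an unadjusted p under 0.05 there were 6 higher and 3 lower, or 11.8% in either direction, against 24% of all genes. By direction these were 7.89% and 3.95%, against 10.1% and 13.9% of all genes. The median difference was 0.01 in the 76 genes and -0.01 in all genes tested, with quartiles at -0.08 and 0.06 in the 76 genes and -0.09 and 0.07 overall. The 76 differences ran from -0.18 (MRPL46) to 0.28 (MRPL54). All 76 genes were detected on all 5 arrays, with mean signals on the representative probe (the brightest of a gene) of 284 to 17745 and a median of 2205, where the pooled background was 124.0. A gene that missed the threshold is not thereby shown to be equal between the groups. The 95% confidence interval of the difference, not adjusted for the number of genes, lay inside a 1.5-fold change either way for all 76 genes, against 98.6% of all genes tested. It lay inside a 1.2-fold change for 60 of the 76 (78.9%), against 62.6% of all genes tested. The widest bounds were -0.38 (MRPL57) and 0.45 (MRPL54). No background was subtracted, which makes folds smaller, most of all for dim probes.

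**Figure D1:**
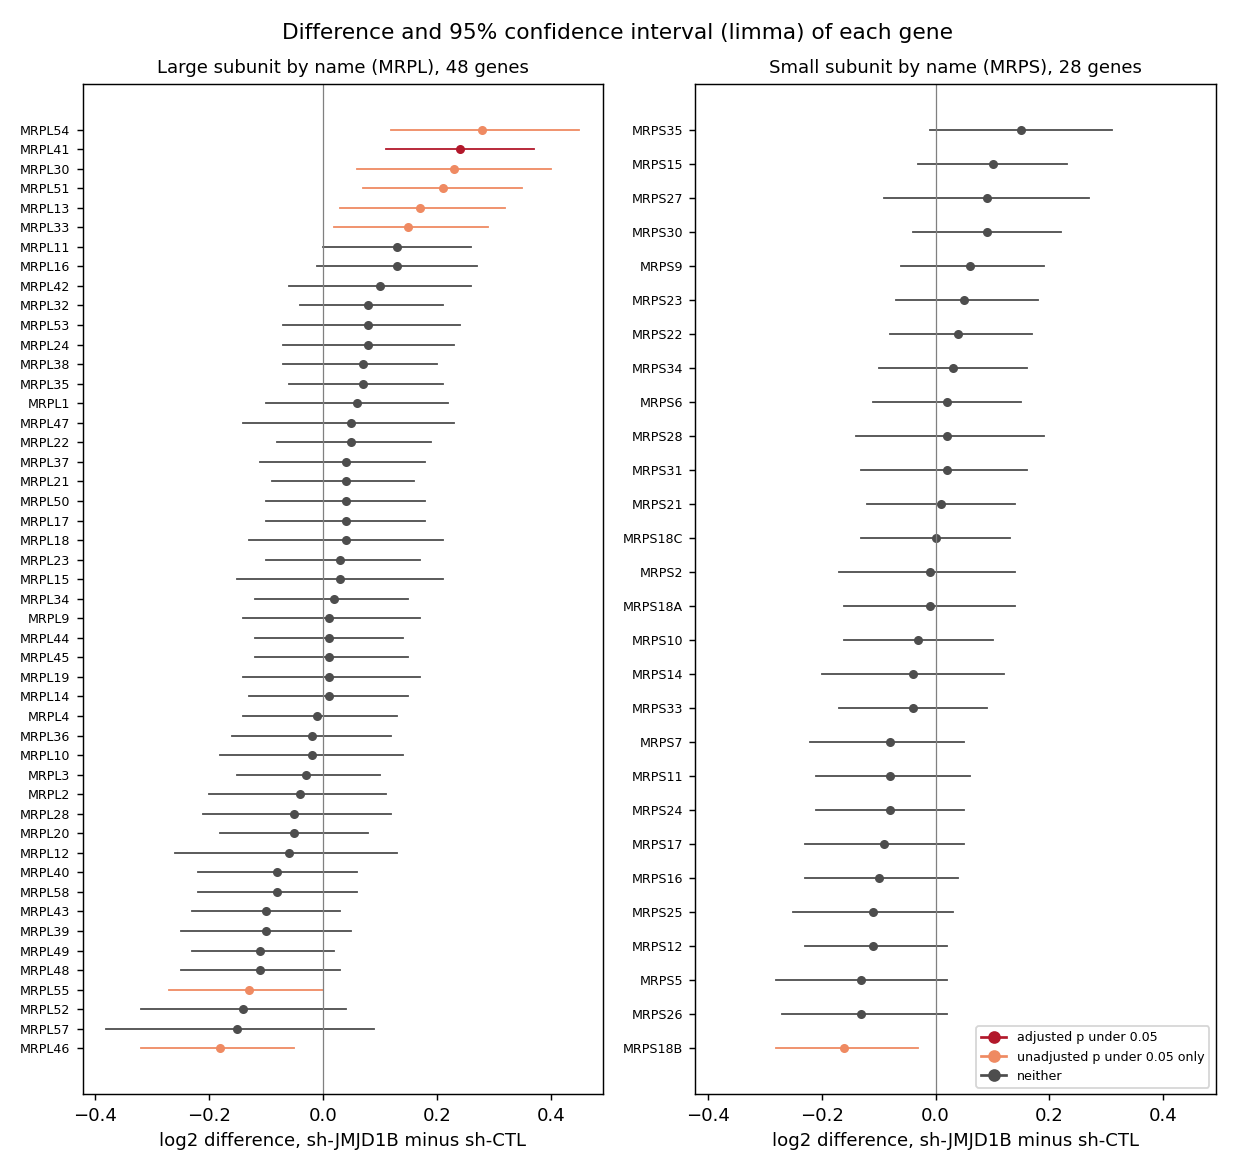
Log2 difference (sh-JMJD1B minus sh-CTL, x axis) with its 95% confidence interval for each of 48 MRPL genes (left) and 28 MRPS genes (right), 1 probe per gene. MRPL41 is the only gene past an adjusted p of 0.05, 8 more pass at the unadjusted p only, and the intervals of the other genes cross 0.

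MRPL41, a large subunit protein that is found in mitochondrial ribosomes only and has also been described as a partner of the survival protein BCL2, was measured by probe ILMN_1705464. Its deposited signals were 2613, 2396 and 2342 on the sh-JMJD1B arrays and 1975 and 1939 on the sh-CTL arrays. The normalised levels were 11.24, 11.24 and 11.22 in sh-JMJD1B and 11.03 and 10.95 in sh-CTL. All sh-JMJD1B arrays thus lay above the sh-CTL arrays. The difference was 0.24 ± 0.06 (95% confidence interval 0.11 to 0.37), a 1.18-fold higher level, with an adjusted p of 0.042 in limma. Leaving out any 1 of the 5 arrays, which also lowers the number of samples, gave a difference of 0.21 to 0.28. Without 1 of the sh-JMJD1B arrays the adjusted p was 0.093 to 0.13 in limma. The call was lost without any 1 of the 5 arrays. It was also lost with array weights (adjusted p = 0.051), background subtraction (0.13), normexp (0.14) and the replicate number as a block (0.15). No other probe of MRPL41 was measured.

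**Figure D2:**
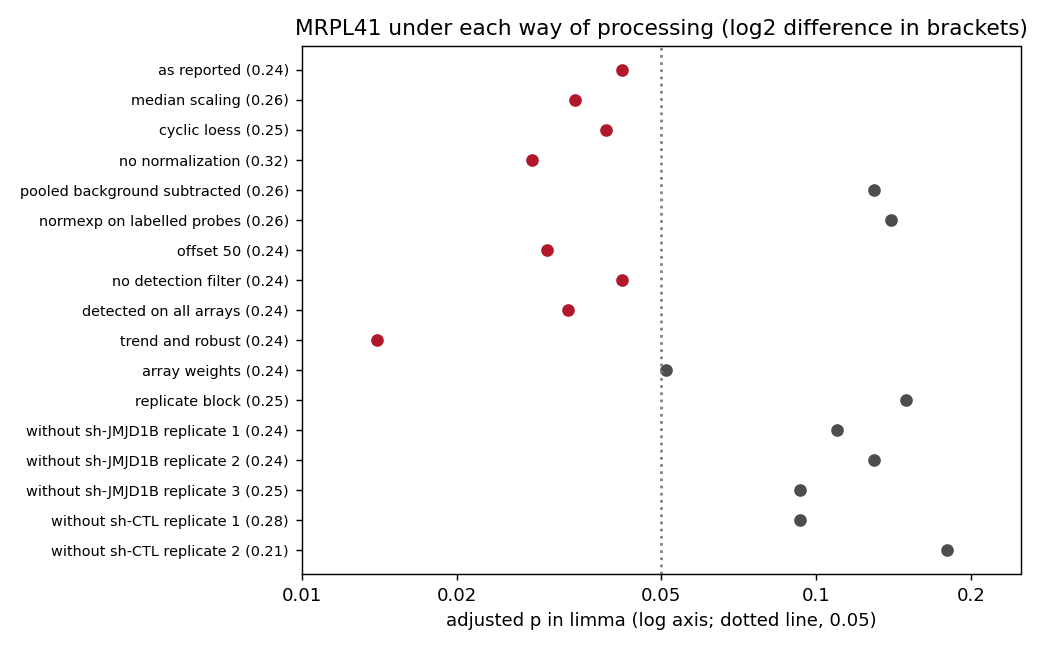
Adjusted p of MRPL41 in limma (x axis, log scale) under the reported processing and 16 alternatives, with the log2 difference in brackets. The difference stays between 0.21 and 0.32, while the adjusted p runs from 0.014 to 0.18 and lies on both sides of the dotted line at 0.05.

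Beside MRPL41, the highest differences were those of the large subunit genes MRPL54, MRPL30, MRPL51 and MRPL13, and none of these passed the threshold. MRPL54, found in mitochondrial ribosomes only, had levels of 12.08, 12.19 and 12.27 in sh-JMJD1B and 11.97 and 11.83 in sh-CTL, a difference of 0.28 ± 0.07 (adjusted p = 0.058 in limma). MRPL51 had 11.41, 11.32 and 11.39 in sh-JMJD1B and 11.11 and 11.21 in sh-CTL, a difference of 0.21 ± 0.06 (adjusted p = 0.086 in limma). In each of these genes every sh-JMJD1B array lay above the sh-CTL arrays. MRPL30, a counterpart of a bacterial large subunit protein, had 9.65, 9.89 and 9.86 in sh-JMJD1B and 9.58 and 9.57 in sh-CTL on its brightest probe (0.23 ± 0.08, adjusted p = 0.13 in limma). Its other probe, ILMN_1661039, showed a difference of 0.00 ± 0.06 with overlapping groups. MRPL13 and MRPL33, also with bacterial counterparts, stood at 0.17 ± 0.06 and 0.15 ± 0.06, and the other probe of MRPL33 at 0.11 ± 0.06. MRPL11, which forms the base of the stalk where translation factors dock, and MRPL16 were each at 0.13 ± 0.06.

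At the other end stood MRPL46, a large subunit protein without a bacterial counterpart. Its levels were 10.90, 10.94 and 10.84 in sh-JMJD1B and 11.08 and 11.08 in sh-CTL, and the difference of -0.18 ± 0.06 was not called (adjusted p = 0.11 in limma). MRPS18B, a human relative of bacterial protein S18, had 11.50, 11.48 and 11.52 in sh-JMJD1B and 11.64 and 11.68 in sh-CTL (-0.16 ± 0.06, adjusted p = 0.16 in limma). The sh-JMJD1B arrays lay below the sh-CTL arrays for MRPL46 and for MRPS18B on this probe, but the other probe of MRPS18B was at 0.07 ± 0.06 with overlapping groups. MRPL55 was at -0.13 ± 0.06 on its brightest probe and at -0.03 and 0.01 on its others. MRPL57, MRPL52, MRPL48 and MRPL49, all large subunit proteins without a bacterial counterpart, were at -0.15, -0.14, -0.11 and -0.11. The groups overlapped for MRPL57 and MRPL52. Across the protein genes, the 42 with a bacterial counterpart had a median difference of 0.01 and the 34 without one of 0.02. This split was not tested. Without sh-CTL replicate 2 MRPL57 and MRPL52 were each at -0.01, and without sh-CTL replicate 1 at -0.28 and -0.27.

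**Figure D3:**
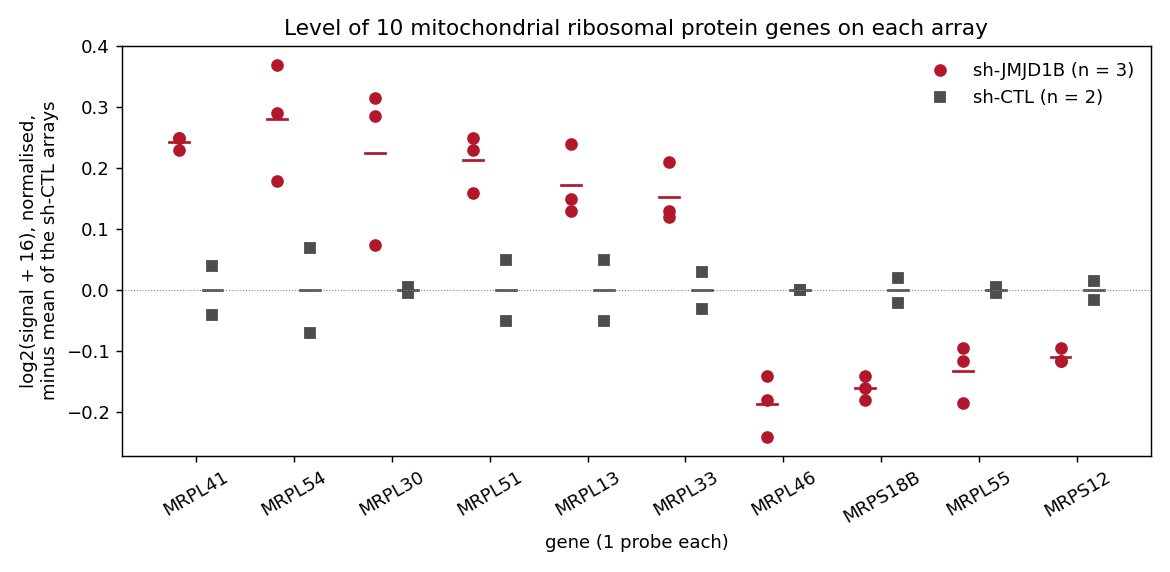
Normalised log2 level of 10 members on each array, minus the mean of that gene's sh-CTL arrays (y axis); red circles are the 3 sh-JMJD1B arrays, grey squares the 2 sh-CTL arrays, short bars the group means. The sh-JMJD1B arrays lie above the sh-CTL arrays for MRPL41, MRPL54, MRPL30, MRPL51, MRPL13 and MRPL33 and below them for MRPL46, MRPS18B, MRPL55 and MRPS12, with MRPL41 the only called gene.

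The promoters are shown of the 3 members with the smallest p-values in limma, all higher, and of the lowest member of each subunit. These genes were picked by their values, and of them only MRPL41 was called. Motifs that differ between their windows therefore describe these windows only. The sequences are from RefSeq (GRCh38.p14), run 5′ to 3′ on the gene's strand from 250 bases before to 50 after the gene's start, and carry in capitals every match, on either strand, to the ETS motif CCGGAAG, the YY1 motif AANATGGC, the NRF1 motif (GCGCA, any base, GCGC) and CCAAT. No matches overlapped. The windows are chr9:137551629-137551928 on the plus strand for MRPL41, chr19:3762432-3762731 on the plus strand for MRPL54, chr12:6493213-6493512 on the minus strand for MRPL51, chr15:88467339-88467638 on the minus strand for MRPL46 and chr6:30617590-30617889 on the plus strand for MRPS18B.
MRPL41: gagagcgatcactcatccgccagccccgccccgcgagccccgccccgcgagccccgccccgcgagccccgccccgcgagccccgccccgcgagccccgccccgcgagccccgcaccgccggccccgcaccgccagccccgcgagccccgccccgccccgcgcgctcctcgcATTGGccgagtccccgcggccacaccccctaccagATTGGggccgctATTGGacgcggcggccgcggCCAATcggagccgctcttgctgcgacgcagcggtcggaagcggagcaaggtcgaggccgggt
MRPL54: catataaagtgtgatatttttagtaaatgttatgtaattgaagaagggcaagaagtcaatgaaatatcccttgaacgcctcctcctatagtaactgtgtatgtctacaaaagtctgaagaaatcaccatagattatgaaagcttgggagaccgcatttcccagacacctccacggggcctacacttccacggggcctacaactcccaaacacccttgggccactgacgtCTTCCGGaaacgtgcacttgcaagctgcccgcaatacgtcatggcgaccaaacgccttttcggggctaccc
MRPL51: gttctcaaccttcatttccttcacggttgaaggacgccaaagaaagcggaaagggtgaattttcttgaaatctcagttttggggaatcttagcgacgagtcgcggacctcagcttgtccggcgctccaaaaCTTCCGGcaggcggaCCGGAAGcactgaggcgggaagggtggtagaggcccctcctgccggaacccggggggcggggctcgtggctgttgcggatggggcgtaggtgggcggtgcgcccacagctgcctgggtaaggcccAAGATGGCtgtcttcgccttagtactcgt
MRPL46: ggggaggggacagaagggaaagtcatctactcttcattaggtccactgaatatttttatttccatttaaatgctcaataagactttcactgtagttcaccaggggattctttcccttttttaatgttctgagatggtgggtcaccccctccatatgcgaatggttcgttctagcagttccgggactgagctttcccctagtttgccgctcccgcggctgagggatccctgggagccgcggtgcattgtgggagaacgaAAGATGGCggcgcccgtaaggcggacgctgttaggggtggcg
MRPS18B: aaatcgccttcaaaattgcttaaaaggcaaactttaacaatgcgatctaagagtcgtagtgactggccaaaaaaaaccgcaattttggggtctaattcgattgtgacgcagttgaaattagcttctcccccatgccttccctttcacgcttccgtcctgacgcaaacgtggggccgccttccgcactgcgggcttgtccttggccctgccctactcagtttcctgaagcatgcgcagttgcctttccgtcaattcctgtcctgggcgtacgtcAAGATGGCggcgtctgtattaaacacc
The MRPL41 window held 4 CCAAT boxes and 8 GC boxes (GGGCGG, left in lower case) and neither an ETS nor a YY1 match. MRPL51 held 2 ETS matches, 1 YY1 match and 2 GC boxes, MRPL54 1 ETS match, and MRPL46 and MRPS18B 1 YY1 match each, and these 3 held 0 GC boxes.

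ETS factors such as GABP, and YY1 and NRF1, are known regulators of nuclear genes for mitochondrial proteins. Promoter windows were found for 68 of the 76 genes, 84 windows in all, as some genes have several and these can overlap. The ETS motif stood in 32 of the 84 windows (38.1%), against 17% of the 12901 windows of all genes tested and 10.3% of all 35116 windows in the table. The YY1 motif stood in 28 (33.3%), against 9.49% and 6.58%. The shares of windows with the NRF1 motif were 11.9%, against 10.2% and 5.78%, and with CCAAT 32.1%, against 35.5% and 34.6%. GC boxes stood in 60.7% of the members' windows, against 64.8% and 45%. A match describes letters only and does not show binding. The median difference in expression was 0.00 in the 29 members with an ETS match and 0.01 in the 39 without, and 0.01 in the 26 with and in the 42 without a YY1 match. For NRF1 it was 0.01 in the 9 with and in the 59 without a match. For CCAAT it was 0.04 in the 22 with and -0.02 in the 46 without. An unadjusted p under 0.05 in limma was reached by 1 of these 22 and 7 of these 46, against 24% of all genes. For ETS these counts were 4 of 29 with and 4 of 39 without a match. For YY1 they were 3 of 26 and 5 of 42, and for NRF1 1 of 9 and 7 of 59. The splits by motif were not tested.

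Split by subunit, the large subunit genes had a median difference of 0.02, with 30 of 48 above 0 (62.5%). The small subunit genes had one of -0.01, with 13 of 28 above 0 (46.4%). Of all genes tested, 46.8% were above 0. All 6 genes higher at an unadjusted p under 0.05 in limma were large subunit genes, as were 2 of the 3 lower (MRPL46 and MRPL55). Of the large subunit genes 12.5% were higher and 4.17% lower at this p, against 10.1% and 13.9% of all genes. For the small subunit genes these shares were 0% and 3.57%. The difference between the subunits was not tested. Every sh-JMJD1B array lay above every sh-CTL array for 16 of the 76 genes (21.1%) and below for 16 (21.1%), against 17.9% and 23.9% of all genes tested.

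In the small subunit the highest differences were those of MRPS35, found in mitochondrial ribosomes only (0.15 ± 0.07), and MRPS15 (0.10 ± 0.06), which has a bacterial counterpart. MRPS35 stood at 11.90, 11.91 and 12.00 in sh-JMJD1B and at 11.89 and 11.69 in sh-CTL, so that its groups were separated by 0.01 only. Its difference was 0.05 without sh-CTL replicate 2 and 0.25 without sh-CTL replicate 1. MRPS12, which sits at the decoding centre, had 12.89, 12.89 and 12.91 in sh-JMJD1B and 13.02 and 12.99 in sh-CTL (-0.11 ± 0.06, adjusted p = 0.33 in limma). MRPS5 and MRPS26 were at -0.13 ± 0.07 each (MRPS26 at -0.04 without sh-CTL replicate 2), MRPS25 at -0.11 ± 0.06 and MRPS16, which is mutated in an inherited respiratory chain disease, at -0.10 ± 0.06. MRPS30 stood at 0.09 ± 0.06. None of these was called.

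A total of 23 members had several probes, all of them protein genes, with 27 probes beyond the representative ones. The probes lay on the same side of 0 for 15 of the 23 and on both sides for 8. The probes differed in sign and by over 0.1 for MRPS18B, MRPL42 (0.10 and -0.07), MRPL11 (0.13, -0.02 and 0.07), MRPL43 (-0.10, 0.04 and -0.07), MRPL47 (0.05 and -0.09) and MRPL55. The additional probe of MRPS11, picked out after its value was seen, had 9.41, 9.33 and 9.40 in sh-JMJD1B and 9.73 and 9.54 in sh-CTL. Its difference of -0.25 ± 0.07 (adjusted p = 0.067 in limma) was larger than the -0.08 ± 0.06 of the brighter probe. Which transcripts the probes of a gene detect was not analysed here.

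**Figure D4:**
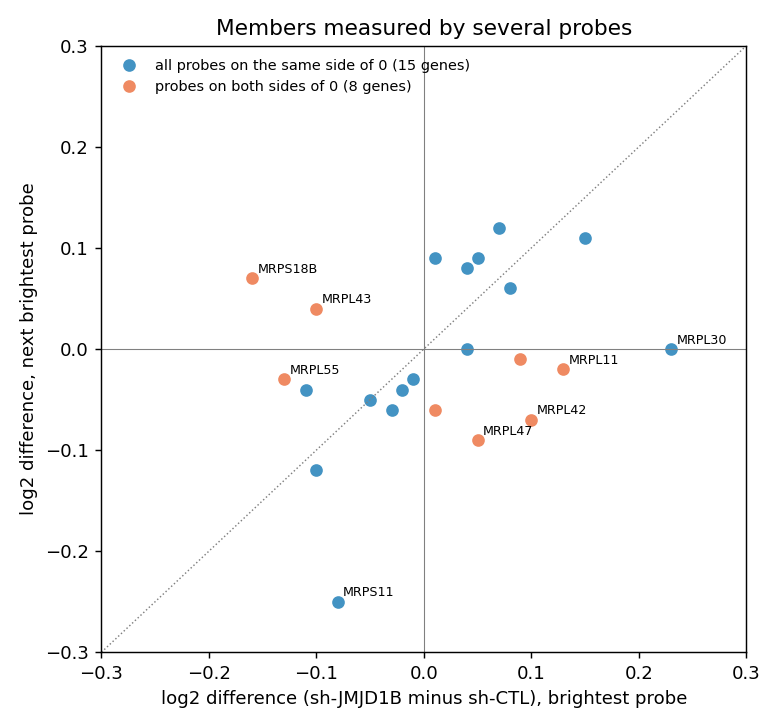
Log2 difference (sh-JMJD1B minus sh-CTL) on the brightest probe (x axis) and the next brightest probe (y axis) of the 23 members with several probes; the dotted line marks equal values. In 15 genes all probes lie on the same side of 0, and named genes are those whose probes span at least 0.12.

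The 3 symbols that encode no ribosomal protein were not called either. MRPL20-AS1 had 9.90, 9.86 and 9.97 in sh-JMJD1B and 10.12 and 10.06 in sh-CTL (-0.18 ± 0.06, adjusted p = 0.12 in limma), while its sense partner MRPL20 was at -0.05 ± 0.06. MRPL42P5 was at -0.12 ± 0.06 and MRPS31P5 at 0.09 ± 0.13. MRPS31P5 was detected on 4 of the 5 arrays, and its levels of 7.42, 7.73 and 7.97 in sh-JMJD1B surrounded the 7.69 and 7.55 in sh-CTL. Signals of pseudogenes and of their parent genes MRPL42 and MRPS31 may be shared through similar sequence, which was not tested.

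Genes that build and modify the mitochondrial ribosome were set beside its proteins. Of 28 measured genes for assembly and rRNA modification 0 rose and 4 fell in limma, or 14.3% against 3.7% of all genes called lower, with a median of -0.04. METTL15, a methyltransferase of the small subunit rRNA, had 9.07, 8.97 and 9.12 in sh-JMJD1B and 9.35 and 9.37 in sh-CTL (-0.30 ± 0.06, adjusted p = 0.026 in limma). MRM3, a methyltransferase of the large subunit rRNA, had 9.98, 10.05 and 9.98 in sh-JMJD1B and 10.24 and 10.30 in sh-CTL (-0.27 ± 0.06, adjusted p = 0.032 in limma). RPUSD3, a pseudouridine synthase family member needed for the large subunit rRNA, fell by 0.25 ± 0.06, and MALSU1, an assembly factor of the large subunit, by 0.26 ± 0.06 (adjusted p = 0.042 and 0.044 in limma). Every sh-JMJD1B array lay below the sh-CTL arrays for 28.6% of the listed genes, against 23.9% of all genes tested. Among them were the 4 genes called lower. The count was 0 without normalization, after background subtraction, after normexp, with the replicate number as a block and without sh-JMJD1B replicate 1 or 2 or either sh-CTL replicate, and it was 1 without sh-JMJD1B replicate 3. The list was chosen with earlier results of these data known, so its share of called genes is not independent of them. Whether the assembly genes differ from the protein genes as a group was not tested.

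Upstream of the ribosome, 2 of 25 genes for mitochondrial DNA upkeep, transcription and RNA processing fell in limma and 0 rose, or 8% lower against 3.7% of all genes (median -0.01). This list, too, was chosen with earlier results of these data known. Every sh-JMJD1B array lay below the sh-CTL arrays for 32% of its genes, against 23.9% of all genes tested. TWNK, the helicase of mitochondrial DNA, had 8.42, 8.52 and 8.48 in sh-JMJD1B and 8.89 and 8.83 in sh-CTL, the largest difference among the named pathway genes (-0.38 ± 0.06, adjusted p = 0.0072 in limma). POLG, the catalytic subunit of the mitochondrial DNA polymerase, had 9.62, 9.57 and 9.61 in sh-JMJD1B and 9.89 and 9.93 in sh-CTL (-0.31 ± 0.06, adjusted p = 0.016 in limma). The groups did not overlap in either gene, but TWNK lost its call in limma without sh-CTL replicate 1 (-0.36, adjusted p = 0.058) and with normexp (-0.58, adjusted p = 0.056). POLG lost its call in 7 of 16 alternatives, at differences of -0.25 to -0.37 and adjusted p of 0.065 to 0.091: without sh-JMJD1B replicate 2 or either sh-CTL replicate, without normalization, with background subtracted, with normexp and with the replicate block. The next protein-coding gene beside TWNK is a member, MRPL43, whose difference on its brightest probe was -0.10 ± 0.06 (adjusted p = 0.37 in limma).

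Other parts of mitochondrial translation had no called gene in limma as reported here. Of 13 translation factors 0 were called, against 6.27% of all genes, and 1 was lower at an unadjusted p under 0.05, or 7.69% against 13.9%. MTFMT, which formylates the initiator tRNA, was at -0.20 ± 0.08, and MRRF, the ribosome recycling factor, at 0.11 ± 0.06 (median of the list -0.05). Of 19 genes for mitochondrial tRNA charging 0 were called and 3 passed the unadjusted p, or 15.8% against 24% of all genes. FARS2, which charges the tRNA for phenylalanine, was at 0.29 ± 0.08 (adjusted p = 0.068 in limma) with an SD of 0.19 between the sh-CTL arrays. It stood at 0.16 without sh-CTL replicate 2, and passed the threshold without sh-CTL replicate 1 (0.42, adjusted p = 0.035), without normalization (0.024) and with trend and robust options (0.03). AARS2, the enzyme for alanine, was at -0.19 ± 0.06 (median of the list 0.01). A list of further mitoribosomal or associated proteins held 6 tested genes, 2 of them the members MRPL57 and MRPL58, and 0 were called. OXA1L, the inner membrane insertase to which the ribosome docks, was at 0.16 ± 0.06 (adjusted p = 0.17 in limma). MRPL58, a release factor relative that became part of the ribosome, was at -0.08 ± 0.06.

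Among the most similar gene groups, the 72 subunits of oxidative phosphorylation had a median of 0.05, with 49 above 0 (68.1%). In the mitochondrial ribosomal protein genes these were 0.01 and 43 of 76 (56.6%), and of all genes tested 46.8% were above 0. Called higher was 1 gene in each of these groups, ATP5MC1 of the ATP synthase and MRPL41. The 72 cytosolic ribosomal protein genes had a median of -0.01 with 0 called in limma, and 5 lower (6.94%) and 0 higher at an unadjusted p under 0.05, against 13.9% and 10.1% of all genes. None of the 3 groups reached the called share of all genes, 6.27%.

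**Figure D5:**
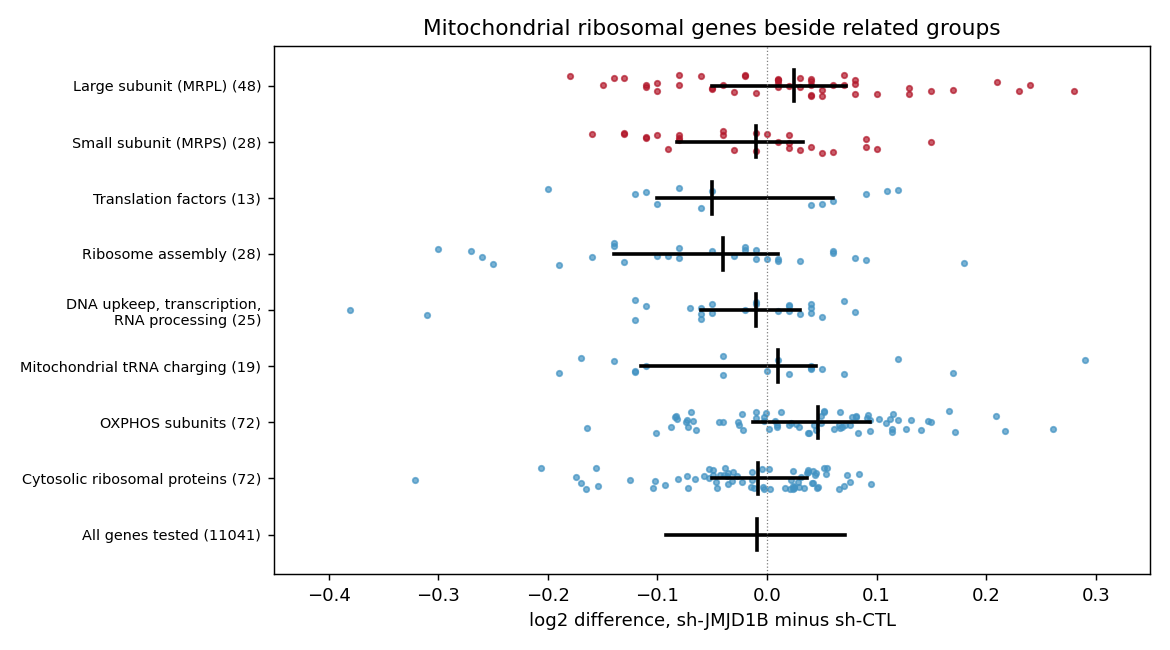
Log2 differences (sh-JMJD1B minus sh-CTL, x axis) of the members by subunit (red) and of related gene groups (blue), 1 point per gene, with medians (vertical bars) and quartiles (horizontal bars); all genes tested are drawn by median and quartiles only. Medians lie between -0.05 and 0.05, and the lowest points are TWNK and POLG in the group for DNA upkeep, transcription and RNA processing and a cytosolic ribosomal protein gene.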

How the data were processed

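Bead arrays measured 3 sh-JMJD1B and 2 sh-CTL samples. Per sample the authors deposited linear bead intensity for 19144 probes. The submitters' processing notes name GenomeStudio 2009.2; its settings were not known here. The array medians of 455.6 to 498.6 and a lowest signal of 109.6 show that the values were neither normalized nor background subtracted. A further table of 47321 probes holds a detection p-value per probe, per the file headers. Its 5 signal columns match no sample name and were used only as a key and for a pooled background. The tables disagree in probe IDs: each labelled row equals exactly 1 probe of the larger table in its 5 signals, but only 47 carry its ID. Rows were named by the matched probe. Across 2294 genes with 2 probes, the probes' levels correlated at r = 0.43 under the matched IDs and 0.00 under the printed ones; genes are not independent replicates.

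Signals plus 16 were log2 transformed, quantile normalized, filtered at a detection p under 0.05 on at least 2 arrays, and fitted with group as the only term (limma 3.58.1, R 4.3.3; lmFit and eBayes; 3 residual degrees of freedom, 10.1 with the prior). The fit was tested on simulated data with changes larger than those of the members and pathway genes, so this test does not show how well differences as small as theirs are found. The number of arrays limits precision (median standard error 0.07). Each gene was represented by its brightest probe. Named were members past the threshold, the 10 highest and 10 lowest, the 6 next by p, members whose probes differ in sign by over 0.1 and members not detected on all arrays, and of each pathway list up to 4 called genes or the 2 with the smallest p. The members and lists were chosen with earlier results of these data known. Protein sequences were not used here.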

Additional observations from a re-analysis of the deposited data

How the results depend on the processing

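Alternatives covered normalization, background, offset, filter, model options, probe choice and single arrays. The count of members called higher, 1 as reported, was 2 with median scaling, an offset of 50 or probes detected on all arrays (MRPL41 and MRPL54), 3 without normalization (with MRPL30) and 3 with trend and robust options or with the mean of a gene's probes (with MRPL51). It was 0 with the pooled background subtracted, with normexp, with array weights (MRPL41 at an adjusted p of 0.051), with the replicate number as a block and, as a range from 0 to 0, without any single array. The count of members lower was 0 under every alternative run. The members' median was 0.09 without normalization, where that of all probes was 0.07.

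Over the whole table, probes higher and lower numbered 791 and 153 without normalization, 130 and 92 after subtraction, 95 and 52 with normexp, 194 and 145 with the block, and 175 to 240 and 126 to 218 without single arrays. Assembly and rRNA modification genes called lower, 4 as reported, numbered 0 without normalization, after subtraction, with normexp and with the block, 2 with array weights, and 0 to 1 without single arrays. For DNA upkeep, transcription and RNA processing, 2 as reported, they numbered 1 without normalization, after subtraction and with the block, 0 with normexp, and 0 to 2 without single arrays. These alternatives for the 2 pathway lists were added after seeing the data. The causes were not tested. Leaving out an array also lowers the number of samples.

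Of 639 values for 40 named genes under 16 alternatives, 570 kept direction and side of the threshold, 56 lost a call, 10 gained one and 3 changed sign without any call. Most of the 40 genes had no call to lose. The 56 all belong to MRPL41, METTL15, MRM3, RPUSD3, MALSU1, TWNK and POLG, the named genes called as reported. Among them, calls were lost in 2 of 16 alternatives for TWNK and in up to 11 of 16 for RPUSD3. MRPL47 was at -0.10 without sh-CTL replicate 1 (-0.10 to 0.19 without single arrays), and MRPS31P5 at -0.05 with the block and without sh-JMJD1B replicate 3 (-0.05 to 0.23). Replicates 1 and 2 are numbered in both groups, and the deviations of same-numbered arrays from their group means correlated at -0.22 and -0.09. With 2 sh-CTL arrays the deviations of these arrays mirror each other, so the correlations cannot settle what same-numbered samples share. A slide block was not run, since no slide could be tied to a sample.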
